A study of Mus musculus with 12 samples.

Results

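*Sim2* and 5 other genes of the bHLH-PAS family, *Arnt*, *Arnt2*, *Ahr*, *Hif1a*, and *Epas1*, were examined in RNA-seq data from mouse palatal mesenchyme cells with reduced *Srsf3*. The 6 genes were taken by symbol from a table of 51490 genes, and all of them passed the filter for low counts. They were chosen by a measured value, the lower *Sim2* RNA of the *Srsf3* knockdown samples in these same data, as *Sim2* with its dimerization partners and relatives. For this reason, the difference between shSrsf3 and scramble samples is given for the 6 genes as a description without a test, while their response to PDGF-AA, which the choice did not use, was tested.

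All 12 samples came from iMEPM cells, an immortalized line of mouse embryonic palatal mesenchyme derived from a male Cdkn2a-/- embryo, so that every group lacks Cdkn2a. The cells carried a lentivirus expressing either a scramble shRNA (scramble) or an shRNA against the 3’ UTR of *Srsf3* (shSrsf3), which encodes a splicing factor of the SR family. They were selected with puromycin, sorted for GFP, and expanded, and were then compared without ligand (-PDGF-AA) and after 1 hr with 10 ng/mL of PDGF-AA, a ligand of the receptor PDGFRα (+PDGF-AA). Each of the 4 groups (scramble -PDGF-AA, shSrsf3 -PDGF-AA, scramble +PDGF-AA, and shSrsf3 +PDGF-AA) held 3 biological replicates. There was 1 sorted line for each shRNA, so that an effect of the shRNA and a difference between the lines cannot be told apart.

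Proteins of the bHLH-PAS family bind DNA as dimers of a regulated subunit and a general partner. Sim2, Ahr (the receptor of dioxins and other aryl hydrocarbons), Hif1a, and Epas1 (the alpha subunits that are stabilized in low oxygen) are regulated subunits, and Arnt and Arnt2 are the partners that they share. Sim2 mostly acts as a repressor, is a gene of the Down syndrome region in humans, and is required for normal palate formation in mice. Hif1a, Epas1, and Ahr are controlled largely through the stability and location of their proteins, which RNA-seq does not measure.

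The dimers recognize short DNA elements with a core such as ACGTG or GCGTG. A match to either core is not assigned to a particular dimer here. The 250 bases upstream of the annotated start of the canonical transcript were read from GRCm39 for the 6 genes. Both runs of letters were searched on both strands, so that CACGT and CACGC are the same runs read from the opposite strand, and matches may overlap. The upstream sequence of *Sim2*, the gene that defined the group, is shown in full, with the matches in capitals (chr16:93885453-93885702, plus strand).
Sim2: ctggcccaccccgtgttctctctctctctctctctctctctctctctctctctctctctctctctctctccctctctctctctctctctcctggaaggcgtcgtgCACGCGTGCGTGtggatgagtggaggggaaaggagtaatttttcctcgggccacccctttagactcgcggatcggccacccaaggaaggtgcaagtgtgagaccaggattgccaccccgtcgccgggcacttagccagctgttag

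It held 3 overlapping GCGTG matches within a single run of letters, whose first bases lay 145, 142, and 138 bases before the start, and no ACGTG match. Of the other members, 4 had a match as well, and the sequence around the match nearest to the start is shown for each to compare them, written 5′ to 3′ on the strand of the gene with the match in capitals.
Arnt: catctttggtacCACGTaatcacccagct
Ahr: tcctgcgtcatCACGTGctgcgaagaggg
Hif1a: acacagacaagCACGTGagcggggcagct
Epas1: ggcaggcagccaGCGTGcggggcggggct

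These lie at chr3:95341211-95341239 (plus strand), chr12:35585109-35585137 (minus strand), chr12:73954495-73954523 (plus strand), and chr17:87060978-87061006 (plus strand), respectively. *Ahr* and *Hif1a* both carried the palindrome CACGTG, which holds ACGTG on each strand, at 69 and 64 bases before the start. *Arnt* had 1 ACGTG match and *Epas1* had 1 GCGTG match, while neither run occurred in the window of *Arnt2*. Thus 5 of the 6 genes had a match, against 50.3% of the upstream windows of all 14774 tested genes with an annotated start (20.0% for ACGTG and 39.2% for GCGTG).

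*Srsf3*, the gene targeted by the shRNA, measured 206.8, 198.7, and 211.8 CPM (counts per 1000000 counts of the library, with its size adjusted by the normalization factor) in the scramble -PDGF-AA samples and 162.4, 164.0, and 161.1 CPM in the shSrsf3 -PDGF-AA samples. With PDGF-AA, the scramble samples measured 221.0, 214.8, and 230.8 CPM and the shSrsf3 samples 164.1, 161.0, and 169.6 CPM. Every shSrsf3 sample was thus below every scramble sample, and the log2 fold change was -0.34 in unstimulated and -0.43 in stimulated samples (adjusted p = 7.95e-06 and 9.54e-07, quasi-likelihood test of edgeR). *Srsf3* shares 12.4% of its 31-base sequences with other annotated transcripts. These values are of RNA, and the paper also reports a decrease of Srsf3 protein in the shSrsf3 line by western blotting. Samples had total counts of 30958966 to 76123359. The study's methods give the lowest Salmon mapping rates for 3 scramble libraries, replicates 1 and 2 without ligand and replicate 2 with ligand. The chi-square per degree of freedom between one of these and a replicate outside the 3 was 18.4 to 37.1, against 4.47 to 9.52 for the other pairs of replicates. Values without these 3 libraries are therefore given beside many of the results. The scramble -PDGF-AA group then holds 1 sample, for which the spread of the remaining groups is assumed. For *Srsf3*, the log2 fold changes without these libraries were -0.39 in unstimulated and -0.46 in stimulated samples. Of 10 markers of palate mesenchyme, 9 were detected, with *Tbx22* at 0 and *Meox2* at 47 counts summed over the 12 samples. Their summed level, most of it from *Col1a1*, was 18316 to 19048 CPM in scramble samples and 16804 to 18353 CPM in shSrsf3 samples. Of 11 markers of other cell types, *Sox10*, *Myod1*, and *Hba-a1* were at 0, and the sum of the list was 3.37 to 5.37 CPM in scramble and 3.30 to 4.34 CPM in shSrsf3 samples. Of the 8 palate markers tested, 1 rose and 5 fell in shSrsf3 samples without ligand, against 22.2% and 23.7% of all tested genes. With ligand, 1 rose and 4 fell, against 20.3% and 20.7%. The log2 fold changes of these 8 markers lay between -0.93 and 1.76 without and between -1.10 and 2.04 with ligand. Of the 5 tested markers of other types, the epithelial marker *Cdh1* fell (-2.24 and -1.95) and the endothelial marker *Cdh5* rose (2.33 and 2.82 on the log2 scale). The part of these marker differences in the results was not tested.

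*Sim2* (ENSMUSG00000062713.10) lies on chromosome 16 of GRCm39 from 93885703 to 93928126 on the plus strand. The 3 scramble -PDGF-AA samples measured 68.9, 72.2, and 70.4 CPM, and the 3 shSrsf3 -PDGF-AA samples measured 24.8, 23.2, and 24.1 CPM. With ligand, the scramble samples measured 63.1, 63.3, and 63.3 CPM, and the shSrsf3 samples measured 22.6, 22.4, and 23.5 CPM. The shSrsf3 samples were low in both ligand conditions, the highest of them at 24.8 CPM and the lowest scramble sample at 63.1 CPM, and the spread between replicates was small in all 4 groups (SD of 0.102 to 1.62 CPM, n = 3). The fitted log2 fold change was -1.55 (standard error 0.038) in the absence and -1.47 (standard error 0.039) in the presence of ligand, or 2.93-fold and 2.77-fold lower RNA in shSrsf3 samples. These values rest on 724 to 4245 counts per sample. Without the 3 libraries of lowest mapping rate they were -1.55 and -1.47, and with each sample left out in turn they stayed between -1.58 and -1.46 over both comparisons. Among the 12262 genes with a mean count of at least 50, 64 genes had a lower log2 fold change than *Sim2* without ligand and 86 with ligand. In bulk RNA, fewer cells that express a gene and less RNA per cell cannot be told apart.

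Of the 6 genes, 4 (*Sim2*, *Ahr*, *Hif1a*, and *Epas1*) were lower and 1 (*Arnt2*) was higher in every shSrsf3 sample than in every scramble sample, both without and with ligand, while *Arnt* overlapped. Over all 15037 tested genes, the groups did not overlap for 53.3% of genes without ligand (26.2% higher and 27.1% lower in shSrsf3 samples) and for 52.6% with ligand (25.5% higher and 27.1% lower). Since the choice of the 6 genes used this contrast, nothing is read from their share. *Sim2* and *Epas1* were the 2 members that differed by more than 2-fold, and *Ahr*, *Arnt2*, and *Hif1a* were inside that limit.

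**Figure D1:**
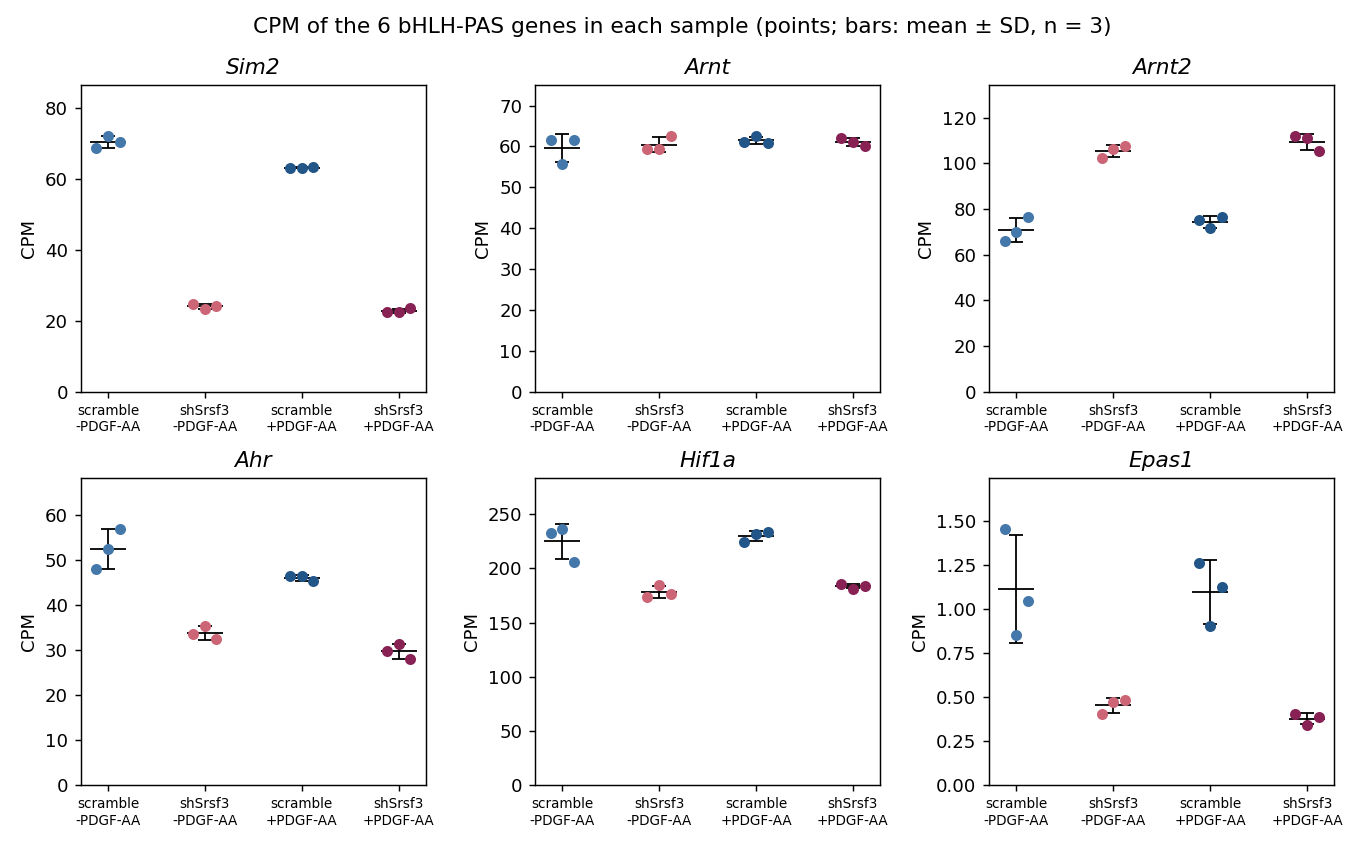
CPM of the 6 genes on linear axes that start at 0, 1 panel per gene, with 1 point per sample and the mean ± SD (n = 3) as bars for scramble and shSrsf3 samples without and with PDGF-AA. The shSrsf3 points of *Sim2*, *Ahr*, *Hif1a*, and *Epas1* lie under all scramble points of the same ligand condition, those of *Arnt2* lie above them, and those of *Arnt* overlap with them.

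Among the other regulated subunits, *Ahr* (ENSMUSG00000019256.19, chromosome 12, 35547973 to 35585057, minus strand) measured 47.9, 52.3, and 56.8 CPM in scramble -PDGF-AA samples and 33.6, 35.3, and 32.3 CPM in shSrsf3 -PDGF-AA samples. With ligand, it measured 46.4, 46.4, and 45.2 CPM in scramble and 29.7, 31.3, and 27.8 CPM in shSrsf3 samples. The shSrsf3 samples were therefore the lower ones throughout, with log2 fold changes of -0.63 and -0.64 (standard error 0.0591 and 0.0607), or 1.55-fold lower in both comparisons. Without the 3 libraries of lowest mapping rate, the values were -0.75 and -0.63.

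*Hif1a* (ENSMUSG00000021109.15, chromosome 12, 73948149 to 73996321, plus strand) was the most abundant of the 6 genes. It measured 232.5, 236.2, and 206.4 CPM in scramble -PDGF-AA and 173.7, 184.5, and 176.6 CPM in shSrsf3 -PDGF-AA samples. With ligand, the values were 224.9, 231.5, and 233.8 CPM in scramble and 185.6, 181.3, and 184.1 CPM in shSrsf3 samples. The scramble sample at 206.4 CPM was the one closest to the shSrsf3 samples, and it is the only one of its group that remains once the libraries of lowest mapping rate are left out. The log2 fold changes were -0.34 and -0.32 with all samples and -0.22 and -0.32 without those libraries.

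*Epas1* (ENSMUSG00000024140.12, chromosome 17, 87061087 to 87140838, plus strand) was near the lower end of detection. It measured 1.45, 0.851, and 1.04 CPM in scramble -PDGF-AA samples and 0.401, 0.471, and 0.483 CPM in shSrsf3 -PDGF-AA samples. With ligand, it measured 1.26, 0.904, and 1.13 CPM in scramble and 0.401, 0.341, and 0.386 CPM in shSrsf3 samples. The groups did not overlap, but the values rest on 37 to 76 counts per scramble sample and 11 to 31 counts per shSrsf3 sample. The log2 fold changes of -1.30 and -1.54 had the widest standard errors of the 6 genes (0.239 and 0.26), and they were -1.22 and -1.66 without the 3 libraries.

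The 2 partners differed from each other. *Arnt* (ENSMUSG00000015522.21, chromosome 3, 95341365 to 95404551, plus strand) had group means of 59.6 ± 3.39 (scramble) and 60.5 ± 1.77 CPM (shSrsf3) in unstimulated samples and of 61.5 ± 0.914 and 61.1 ± 0.932 CPM in stimulated samples (SD, n = 3). Its 12 samples lay between 55.7 and 62.6 CPM, and the scramble and shSrsf3 groups overlapped in both ligand conditions, with log2 fold changes of 0.02 and -0.01 (standard error 0.044 in both). These log2 fold changes were -0.03 and -0.0004 without the 3 libraries of lowest mapping rate.

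*Arnt2* (ENSMUSG00000015709.11, chromosome 7, 83895483 to 84059740, minus strand) measured 66.1, 70.1, and 76.5 CPM in scramble -PDGF-AA and 102.5, 106.5, and 107.8 CPM in shSrsf3 -PDGF-AA samples. With ligand, it measured 75.2, 71.6, and 76.4 CPM in scramble and 112.0, 111.1, and 105.6 CPM in shSrsf3 samples. All shSrsf3 samples were above all scramble samples, with log2 fold changes of 0.57 and 0.56, or 1.49-fold and 1.47-fold higher. Without the 3 libraries of lowest mapping rate, the values were 0.46 and 0.53.

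To compare the genes with each other, CPM was divided by the length of all annotated exons of a gene (CPM per kb). In scramble -PDGF-AA samples, *Hif1a* was highest at 27.0 ± 1.95 CPM per kb, followed by *Sim2* (15.5 ± 0.356), *Ahr* (8.46 ± 0.713), *Arnt2* (7.93 ± 0.586), *Arnt* (6.38 ± 0.362), and *Epas1* (0.198 ± 0.0546; SD, n = 3). The ranges of *Ahr* and *Arnt2* overlapped, and the other neighbours in this order did not. In shSrsf3 -PDGF-AA samples, *Hif1a* was again highest (21.4 ± 0.671 CPM per kb) and *Arnt2* (11.8 ± 0.307) was next. *Sim2* (5.27 ± 0.180) was now below *Arnt* (6.47 ± 0.190) and overlapped with *Ahr* (5.46 ± 0.243), and *Epas1* stayed lowest (0.0800 ± 0.00780). The order of *Arnt*, *Arnt2*, and *Ahr* depended on the length used. With the length of the canonical transcript, *Arnt* had 12.7 ± 0.720, *Arnt2* had 10.8 ± 0.798, and *Ahr* had 9.40 ± 0.792 CPM per kb in scramble -PDGF-AA samples, while *Hif1a* and *Sim2* kept the first and the second place.

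**Figure D2:**
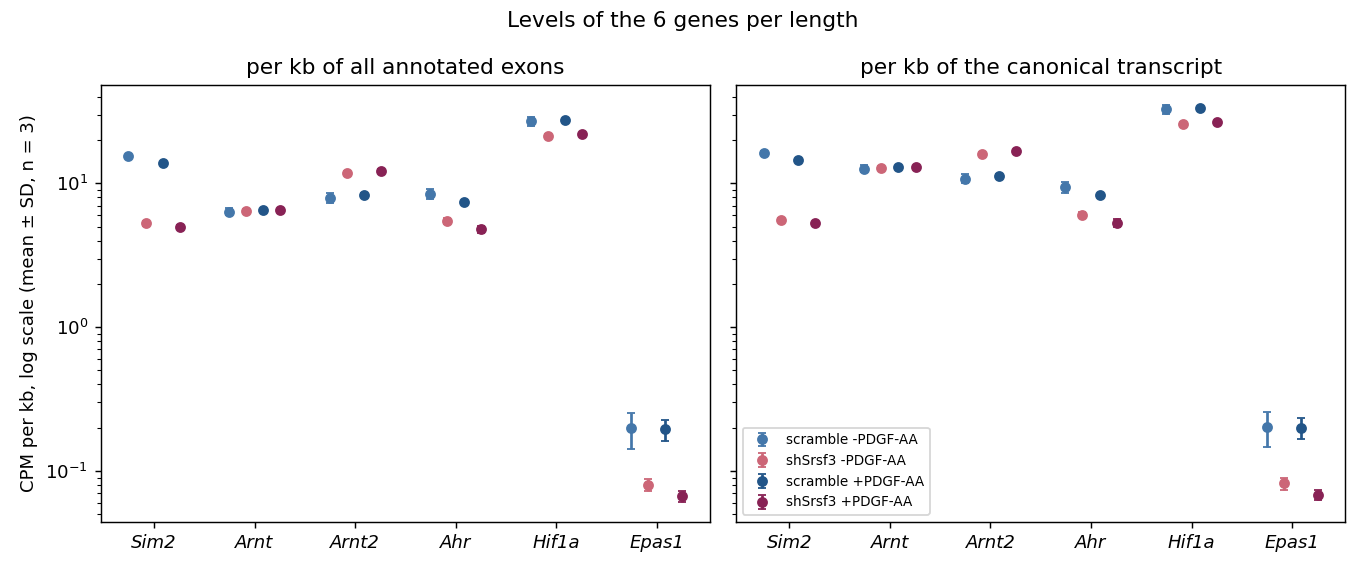
Mean CPM per kb ± SD (n = 3) on a log axis for the 6 genes in the 4 groups, with the length of all annotated exons on the left and of the canonical transcript on the right. *Sim2* is second to *Hif1a* in both groups of scramble samples and lies close to *Ahr* in both groups of shSrsf3 samples, and *Epas1* lies far below the other genes.

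*Sim2* RNA per kb was 1.08 ± 0.0641 times the sum of both partners in scramble -PDGF-AA samples and 0.289 ± 0.0149 times that sum in shSrsf3 -PDGF-AA samples (SD, n = 3). With ligand, the ratios were 0.931 ± 0.0117 and 0.267 ± 0.0135. With the length of the canonical transcript, they were lower, at 0.697 ± 0.0423 and 0.192 ± 0.00968 without and 0.600 ± 0.00482 and 0.178 ± 0.00871 with ligand. Of the summed RNA of the 4 regulated subunits, *Sim2* made up 30.3% in scramble and 16.4% in shSrsf3 samples without ligand and 28.3% and 15.7% with ligand. The canonical transcript length gave 27.8% and 14.7% without and 25.8% and 14.1% with ligand. *Arnt2* made up 55.4% ± 2.18 of the summed partner RNA in scramble -PDGF-AA and 64.6% ± 0.496 in shSrsf3 -PDGF-AA samples, and 55.8% ± 1.19 and 65.2% ± 0.440 with ligand. By the canonical transcript length, its share was 46.0% and 55.6% without and 46.4% and 56.2% with ligand. Which partner had more RNA in scramble samples therefore depended on the length used. These shares are of RNA per length and do not give the amounts of protein or of dimers.

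The response to PDGF-AA was next tested in each line. In scramble cells, *Sim2* was the only one of the 6 genes that passed the test, and all 3 stimulated samples (63.1 to 63.3 CPM) were below all 3 unstimulated ones (68.9 to 72.2 CPM). It fell by 0.16 on the log2 scale (standard error 0.0367), or 1.12-fold, with an adjusted p of 0.0288 in the edgeR test, and 4.04% of all tested genes passed this test. The call was lost without scramble -PDGF-AA replicate 2 (adjusted p = 0.111), scramble +PDGF-AA replicate 1 (0.0934) or 3 (0.103), shSrsf3 -PDGF-AA replicate 3 (0.0517), and shSrsf3 +PDGF-AA replicate 1 (0.0537). It was also lost without the 3 libraries of lowest mapping rate, where the log2 fold change was still -0.16 (adjusted p = 0.139), and without a filter for low counts (adjusted p = 0.0779). In shSrsf3 cells, *Sim2* samples with and without ligand overlapped (log2 fold change -0.07 with a standard error of 0.04 and an adjusted p of 0.617 in edgeR). The difference between these responses was 0.08 (standard error 0.0543) and did not pass the interaction test (adjusted p = 0.882).

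*Ahr* was lower in all stimulated than in all unstimulated samples of both lines, but did not pass either test. Its log2 fold change was -0.19 in scramble cells, with a standard error of 0.0583 and an edgeR adjusted p of 0.0966, and -0.19 in shSrsf3 cells, with 0.0612 and 0.269. In scramble cells, its value was -0.24 without scramble -PDGF-AA replicate 1 (adjusted p = 0.0353) and -0.31 without the 3 libraries of lowest mapping rate (adjusted p = 0.0230), both past the threshold. Without a filter for low counts it passed in both lines (-0.18 and -0.19, edgeR adjusted p = 0.0191 and 0.0438). In each line, 2 of the 6 genes were lower without overlap (*Sim2* and *Ahr* in scramble cells and *Ahr* and *Epas1* in shSrsf3 cells), against 9.84% and 9.42% of all genes. The *Epas1* groups were nearly tied. Replicate 1 was at 0.4008 CPM (15 counts) with ligand and at 0.4014 CPM (31 counts) without it. *Arnt*, *Arnt2*, *Hif1a*, and *Epas1* had log2 fold changes between -0.01 and 0.07 in scramble cells and between -0.25 and 0.05 in shSrsf3 cells, with adjusted p of 0.527 to 0.988 and 0.826 to 0.962 from edgeR's test. In shSrsf3 cells, 0 of the 6 genes passed the edgeR test, against 0.565% of all tested genes. The adjusted p of the interaction was at least 0.882 for each of the 6 genes.

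**Figure D3:**
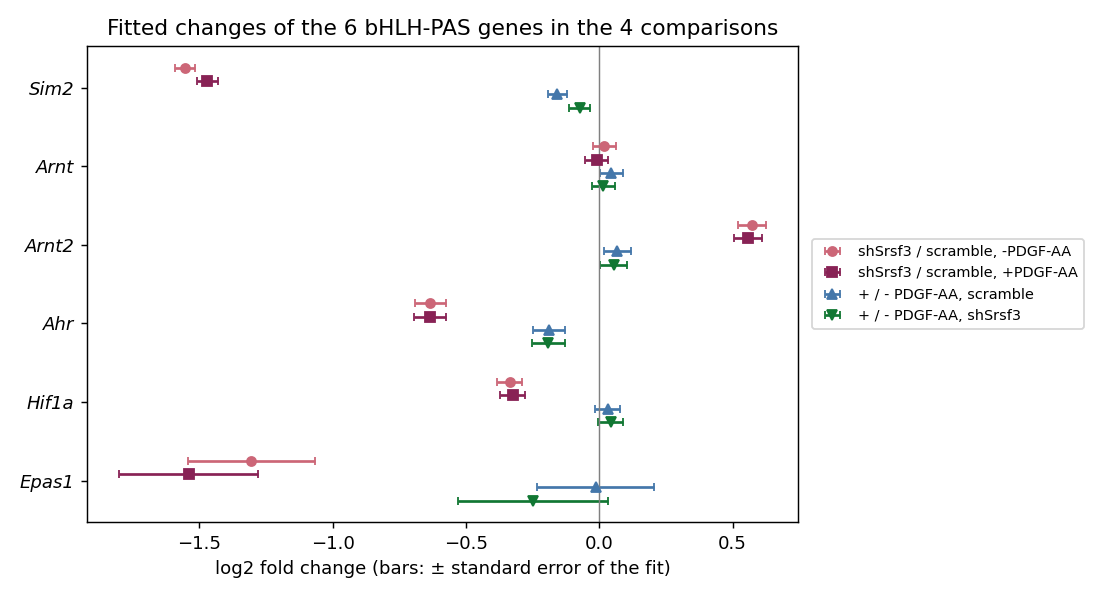
Fitted log2 fold changes of the 6 genes (points) with the standard error of the fit (bars) for shSrsf3 against scramble samples without and with PDGF-AA and for +PDGF-AA against -PDGF-AA in scramble and shSrsf3 cells. The knockdown comparisons lie far from 0 for all genes but *Arnt*, while all ligand comparisons lie between -0.25 and 0.07.

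Other genes of these pathways were taken from fixed lists and were tested in both knockdown comparisons, in which 45.9% of all tested genes without ligand (22.2% higher and 23.7% lower) and 41% with ligand (20.3% higher and 20.7% lower) passed edgeR's test. Of 13 other bHLH-PAS genes, 10 were tested, and 5 rose and 1 fell in shSrsf3 samples without ligand, while 5 rose and 2 fell with ligand (median log2 fold change 0.20 in both, against -0.02 and -0.01 over all genes). Without scramble -PDGF-AA replicate 2 or without the 3 libraries of lowest mapping rate, 2 fell in the absence of ligand, and 1 fell in its presence without scramble +PDGF-AA replicate 3 or shSrsf3 +PDGF-AA replicate 1 or 3. *Sim1*, the closest relative of *Sim2*, had 0 counts in all 12 samples. *Ahrr*, a repressor that competes with Ahr for Arnt and is itself a target of Ahr, was among the genes that rose. It measured 0.651 ± 0.190 (scramble) and 2.08 ± 0.248 CPM (shSrsf3) in unstimulated samples and 0.562 ± 0.0283 and 2.70 ± 1.38 CPM in stimulated samples (SD, n = 3), and the log2 fold changes were 1.65 and 2.25 (edgeR adjusted p of 7.84e-04 and 7.03e-05). The wide SD comes from shSrsf3 +PDGF-AA replicate 3 at 4.25 CPM, and the log2 fold change without this library was 1.77. Once the 3 libraries of lowest mapping rate were left out, the log2 fold changes of *Ahrr* were 1.28 without and 2.25 with ligand. *Clock*, a subunit of the circadian activator, rose by 0.32 and 0.21 (adjusted p = 9.84e-06 and 4.11e-04 from the same test). *Ncoa2*, a coactivator, had log2 fold changes of 0.08 and 0.02 (adjusted p = 0.289 and 0.859 from the same test), and it passed without ligand once scramble -PDGF-AA replicate 3 was left out (0.16, adjusted p = 0.0112).

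Of 18 chaperones and regulators of these proteins, all were tested, and 3 rose and 4 fell without ligand, while 3 rose and 5 fell with ligand (median log2 fold change -0.06 and -0.05). The 5 that fell with ligand numbered 3 without any single one of the 6 stimulated samples but scramble +PDGF-AA replicate 2. *Egln3*, an oxygen-dependent prolyl hydroxylase that marks HIF alpha subunits for degradation, was the one gene of this list past 2-fold. It measured 5.15 ± 0.153 and 2.27 ± 0.0776 CPM in scramble and shSrsf3 samples without ligand and 5.62 ± 0.364 and 2.78 ± 0.267 CPM with ligand (SD, n = 3), with log2 fold changes of -1.18 and -1.02 (edgeR adjusted p of 3.13e-07 and 1.77e-06). *Hsp90aa1* and *Hsp90ab1*, the chaperones that hold Ahr and HIF subunits, had log2 fold changes of 0.05 and 0.04 and of 0.01 and 0.08, respectively, and did not pass (adjusted p of at least 0.136 from the same test). *Hsp90aa1* shares 39.7% of its 31-base sequences with other annotated transcripts, so that its reads could be split between copies. *Hsp90ab1* passed in the 9 samples that remain without the libraries of lowest mapping rate, with 0.12 and 0.09 (adjusted p = 0.0141 and 0.0126), and with ligand also without scramble -PDGF-AA replicate 3 (0.08, adjusted p = 0.0138).

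Of 39 targets of HIF, 37 were tested, and they went in both directions. Without ligand, 10 rose and 11 fell in shSrsf3 samples, and with ligand 7 rose and 13 fell (median log2 fold change 0.00 and -0.06). In the absence of ligand, 6 rose without scramble -PDGF-AA replicate 2 and also without the 3 libraries of lowest mapping rate, and in its presence 4 rose without scramble +PDGF-AA replicate 2 or shSrsf3 +PDGF-AA replicate 3. *Bnip3*, which encodes a mitophagy receptor, fell the most of the named targets, from 14.3, 16.5, and 14.8 CPM in scramble to 5.37, 4.84, and 3.87 CPM in shSrsf3 samples without ligand (log2 fold change -1.67 with an edgeR adjusted p of 2.23e-08). With ligand, it measured 13.97, 13.33, and 15.02 CPM in scramble and 4.81, 4.77, and 5.47 CPM in shSrsf3 samples (-1.49, adjusted p = 1.11e-07). The groups were thus well apart in both conditions, although 27.2% of its 31-base sequences occur in other transcripts. *Ndrg1*, a stress-responsive gene of differentiation, fell from 150 ± 4.50 to 60.1 ± 2.04 CPM without and from 145 ± 3.81 to 69.5 ± 4.91 CPM with ligand (SD, n = 3), with log2 fold changes of -1.32 and -1.07 (edgeR adjusted p of 3.19e-10 and 2.28e-09). In contrast, *Adm*, which encodes the vasodilator peptide adrenomedullin, rose from 36.9 ± 3.92 to 104 ± 3.26 CPM without and from 49.4 ± 5.16 to 115 ± 8.03 CPM with ligand (SD, n = 3), with log2 fold changes of 1.49 and 1.22 (edgeR adjusted p of 1.24e-08 and 8.08e-08). *Lox*, a collagen crosslinking enzyme and the most abundant gene of this list, fell by 0.37 and 0.35 on the log2 scale (adjusted p = 1.71e-07 and 3.14e-07 from the same test). *Vegfa*, the best known target, had log2 fold changes of 0.01 and -0.04 (adjusted p = 0.931 and 0.550).

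**Figure D4:**
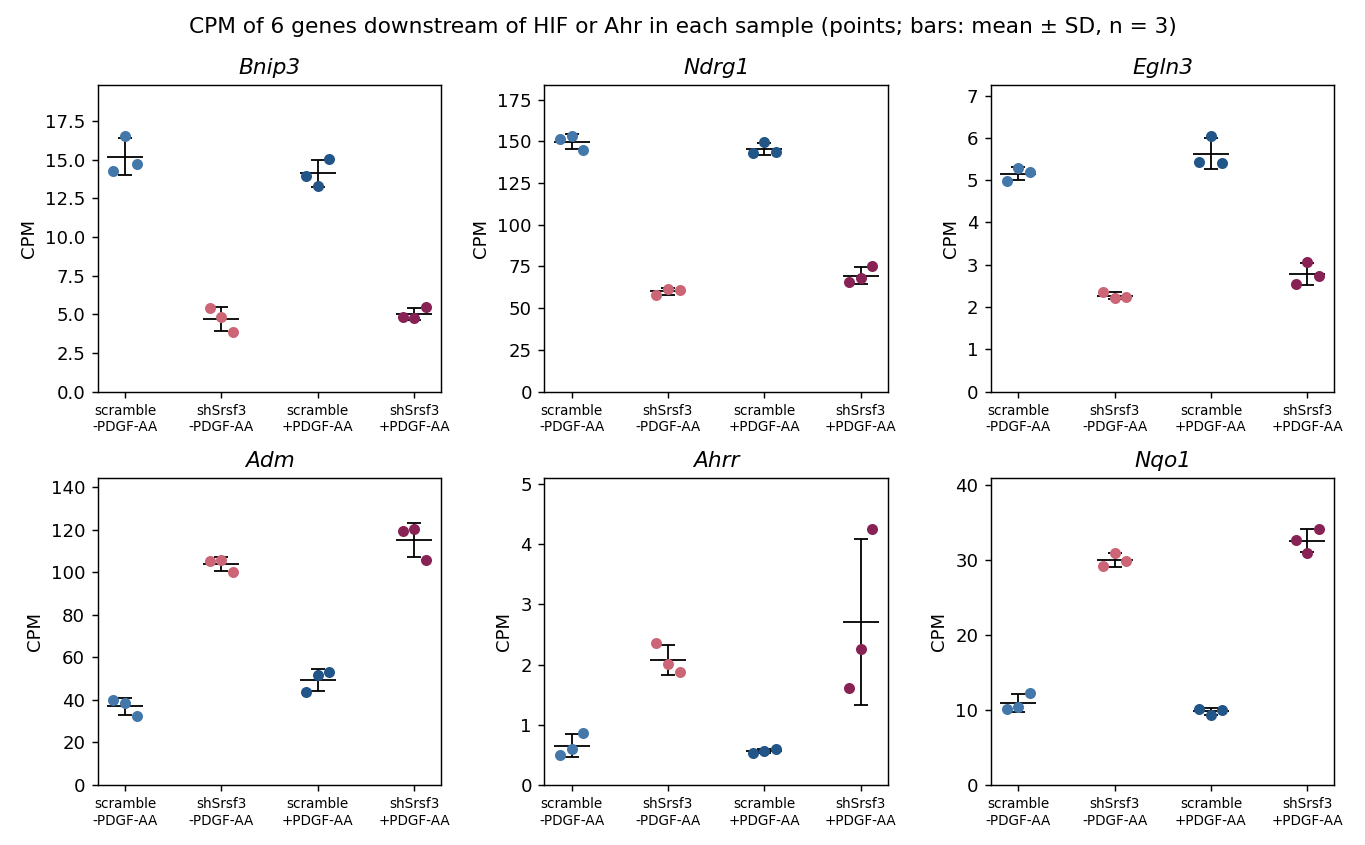
CPM of *Bnip3*, *Ndrg1*, *Egln3*, *Adm*, *Ahrr*, and *Nqo1* on linear axes that start at 0, with 1 point per sample and the mean ± SD (n = 3) as bars for the 4 groups. *Bnip3*, *Ndrg1*, and *Egln3* are lower and *Adm*, *Ahrr*, and *Nqo1* are higher in all shSrsf3 samples, and *Ahrr* has 1 shSrsf3 +PDGF-AA sample at 4.25 CPM.

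Of 10 targets of Ahr, 9 were tested, and 6 rose and 1 fell without ligand, while 7 rose and 1 fell with ligand (median log2 fold change 0.95 and 0.79). *Ahr* RNA itself was lower in the same samples, as described. *Nqo1*, a quinone reductase that is also a target of Nrf2, rose from 10.9 ± 1.18 to 29.98 ± 0.878 CPM without and from 9.79 ± 0.437 to 32.6 ± 1.56 CPM with ligand (SD, n = 3), with log2 fold changes of 1.45 and 1.73 (edgeR adjusted p of 1.70e-09 and 4.24e-10). *Nfe2l2*, which encodes Nrf2, rose by 0.37 and 0.38 (adjusted p = 1.86e-04 and 1.60e-04 from the same test). *Cyp1b1*, the most abundant gene of this list, had log2 fold changes of -0.12 and 0.21 (adjusted p = 0.457 and 0.190). With ligand, its shSrsf3 replicate 3 was at 279.1 CPM and the other 2 at 185.9 and 191.4 CPM, and the value was 0.00 without replicate 3 and 0.20 without a filter for low counts (adjusted p = 5.81e-04). *Cyp1a1*, the classical target, was chosen for mention after its values were seen. It had 0 counts in all 3 scramble -PDGF-AA replicates and at most 24 counts in any of the 12, and the shSrsf3 -PDGF-AA samples were at least 2.07-fold higher, taking a floor of 3 counts per library. The median of the list was also 0.95 with *Cyp1a1* at this bound. The gene of this list that fell, *Aldh3a1*, had at most 24 counts in any sample, and its call was lost in both conditions without the 3 libraries of lowest mapping rate, with DESeq2, and when low counts were not filtered. Of the 12 fits that leave out 1 sample each, it was lost in 5 without ligand and in 10 with ligand, and with ligand also under the replicate block.

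Of 5 genes that Sim2 is known to repress, 3 were tested, and *Bnip3*, which is also a HIF target, was the 1 gene that fell. *Snai2*, a regulator of mesenchymal character, had log2 fold changes of -0.09 and -0.03 (adjusted p = 0.160 and 0.709 in edgeR), and 0 genes of this list rose.

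**Figure D5:**
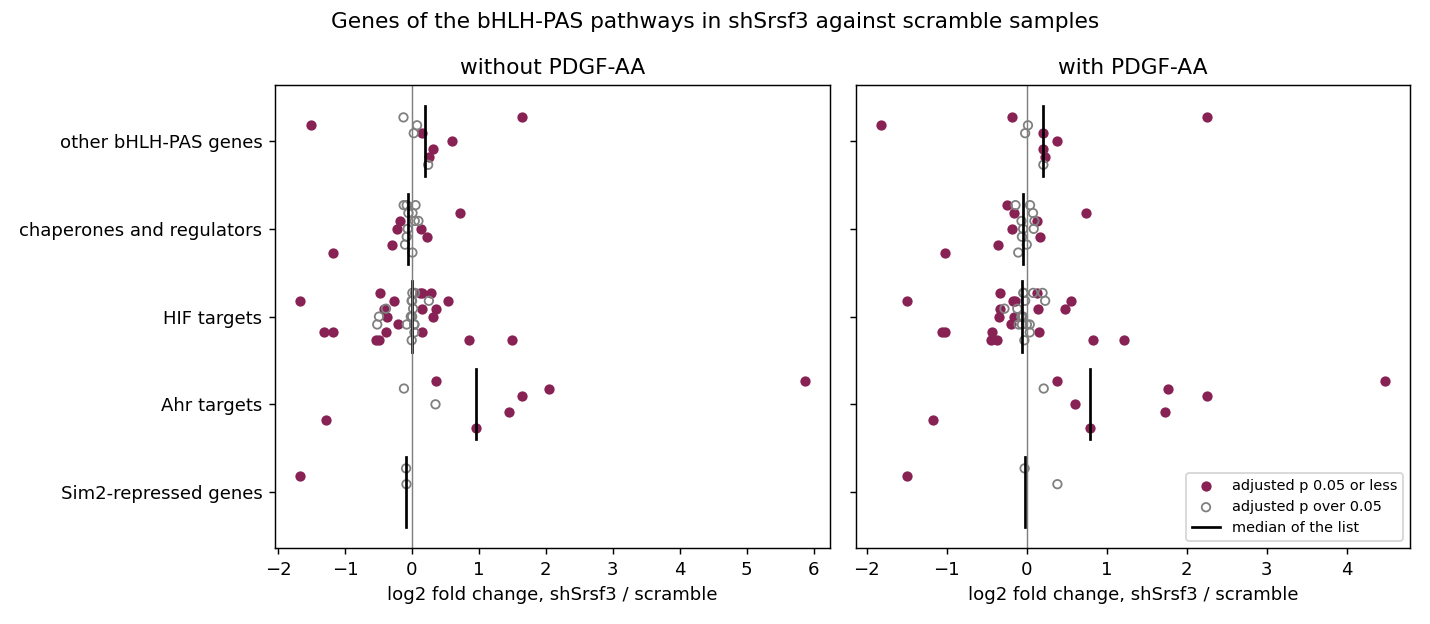
Log2 fold change of each tested gene of the 5 lists (points) in shSrsf3 against scramble samples without (left) and with (right) PDGF-AA, filled where the adjusted p of edgeR's test was 0.05 or less, with a line at the median of each list. The HIF targets spread to both sides of 0, most Ahr targets lie above 0, and the point at the far right is *Cyp1a1*, whose scramble -PDGF-AA samples have no counts.

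For comparison with the 6 genes, the upstream sequence around the match nearest to the start is shown for the list genes named above for a change of more than 2-fold, again with the match in capitals.
Ahrr: gcggggcggctcGCGTGctggggtggg
Bnip3: ggctccgccgccGCGTGcgtcccgccccg
Egln3: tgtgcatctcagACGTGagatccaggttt
Ndrg1: agtccttatgcaCACGCgcacgagcg
Adm: ggcaaatctgacCACGCccaccgtccgcc

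They lie at chr13:74440463-74440489 (minus strand), chr7:138511254-138511282 (minus strand), chr12:54250873-54250901 (minus strand), chr15:66841803-66841828 (minus strand), and chr7:110226798-110226826 (plus strand), respectively. The matches were found in genes that fell (*Bnip3*, *Egln3*, and *Ndrg1*) and in genes that rose (*Ahrr* and *Adm*), and neither run occurred in the window of *Nqo1*. Some of these windows held more matches than the 1 shown. *Bnip3* also carried the palindrome CACGTG, 90 bases before the start, and had 2 ACGTG and 3 GCGTG matches in all. *Ahrr* and *Ndrg1* each had 3 GCGTG matches, *Adm* had 2, and *Egln3* had 1 ACGTG match.

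Upon PDGF-AA stimulation, the HIF targets were the only one of the 5 lists with genes that passed the test, and 7 rose and 1 fell in scramble cells (against 2% and 2.04% of all tested genes) and 3 rose and 0 fell in shSrsf3 cells (against 0.426% and 0.14%). In scramble cells, 4 rose without scramble +PDGF-AA replicate 3, and in shSrsf3 cells 5 rose without scramble -PDGF-AA replicate 3 and 6 without the 3 libraries of lowest mapping rate. *Bhlhe40*, a circadian bHLH repressor, rose from 58.5 ± 3.84 to 107 ± 3.14 CPM in scramble and from 59.4 ± 6.40 to 98.5 ± 9.14 CPM in shSrsf3 cells (SD, n = 3), with log2 fold changes of 0.87 and 0.73 (edgeR adjusted p of 3.10e-05 and 5.19e-04). *Hk2*, the first enzyme of glycolysis, rose by 0.47 and 0.33 (adjusted p = 3.16e-05 and 0.00284), and *Vegfa* rose by 0.44 and 0.39 (adjusted p = 4.23e-04 and 0.00410).

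Another 4 calls in scramble cells were weaker. *Adm* (0.42 with an edgeR adjusted p of 0.0126) lost its call without scramble +PDGF-AA replicate 3 (0.37, adjusted p = 0.0747). The glucose transporter gene *Slc2a1* (0.22, adjusted p = 0.0208) lost it without scramble -PDGF-AA replicate 1 or scramble +PDGF-AA replicate 1 or 3 (0.20 to 0.21, adjusted p of 0.0587 to 0.1). *Mxi1*, a Myc antagonist and the gene that fell (-0.24, adjusted p = 0.0223), lost it without scramble -PDGF-AA replicate 2 or scramble +PDGF-AA replicate 1 or 3 (-0.24 to -0.21, adjusted p of 0.0840 to 0.115). The heme oxygenase gene *Hmox1* (0.29, adjusted p = 0.0290) lost it without scramble -PDGF-AA replicate 1 or 2 or scramble +PDGF-AA replicate 1 or 3 (0.25 to 0.31, adjusted p of 0.0744 to 0.131). Without the 3 libraries of lowest mapping rate, *Hmox1* was at 0.17 (adjusted p = 0.368). In shSrsf3 cells, it had a log2 fold change of 0.31 (adjusted p = 0.0578), which passed without scramble -PDGF-AA replicate 3 (adjusted p = 0.0146) and without those 3 libraries (adjusted p = 0.0159), as well as with DESeq2 and without a filter. Of the 39 genes chosen by the naming rule, 0 passed edgeR's interaction test, as did 0.0133% of all tested genes (2 of 15037, with 833 at an unadjusted p under 0.05 and 26 with DESeq2). Without a filter for low counts, *Adm* and *Cyp1b1* were among those that passed it.

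The 3 nearest tested genes on each side of *Sim2* on chromosome 16 were compared with it, and 3 of these 6 had low counts. On the side before its start, the long noncoding RNA *Gm49620*, 978 bases away, had 1 to 16 counts per sample and log2 fold changes of -0.75 and 0.05, *Chaf1b*, a chromatin assembly factor subunit, had log2 fold changes of -0.05 and -0.02, and *Morc3*, a nuclear body ATPase, had -0.15 and -0.13. On the side after its end, *Hlcs*, which attaches biotin to carboxylases, lies 1615 bases away on the opposite strand and had log2 fold changes of -0.28 and -0.30. *Hlcs* passed edgeR's test in both conditions (adjusted p = 0.00162 and 0.00126), as did *Morc3* (0.00757 and 0.0199), and *Chaf1b* did not (0.484 and 0.867). Over all tested genes, 45.9% passed this test without and 41% with ligand. The call of *Morc3* with ligand was lost with DESeq2 (adjusted p = 0.0606) and without scramble +PDGF-AA replicate 1 (0.0535) or 3 (0.0874) or shSrsf3 +PDGF-AA replicate 2 (0.0833). The pseudogene *Gm6363* within *Hlcs* had 4 to 13 counts per sample and log2 fold changes of -0.22 and 0.26, and shares 87.7% of its 31-base sequences with other transcripts. *Ripply3*, a repressor of Tbx1, had 2 to 23 counts per sample, with log2 fold changes of -0.53 and -1.63 (adjusted p = 0.494 and 0.0504), the latter larger than the -1.47 of *Sim2* but with a standard error of 0.621, and the value with ligand passed in several alternatives, among them without scramble +PDGF-AA replicate 2 (-1.82, adjusted p = 0.0455).

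Across the 12 samples, the genes with the log2 CPM pattern most like that of *Sim2* among 12261 genes were *Mest* (an imprinted gene of mesoderm; Pearson's r = 0.998), *Atp2b4* (a plasma membrane calcium pump; 0.997), *Pbx3* (a homeobox cofactor; 0.996), *Fbln1* (a matrix glycoprotein; 0.996), and *Lrp5* (a Wnt coreceptor; 0.996). The 12 points share 2 lines and the same libraries, and 616 genes (5.02%) had an r of 0.95 or more, and the 12 points fall into 2 separate sets by line. With the group means removed, the r with *Sim2* was 0.644 for *Mest*, 0.101 for *Atp2b4*, -0.212 for *Pbx3*, 0.584 for *Fbln1*, and 0.332 for *Lrp5*. These 5 genes were chosen for likeness to *Sim2* over samples that split by line, so that lower values in shSrsf3 samples follow from the choice. Their log2 fold changes lay between -1.41 and -0.93 without and between -1.41 and -0.94 with ligand, smaller in size than the -1.55 and -1.47 of *Sim2*. Among the other members, r with *Sim2* was 0.956 for *Ahr*, 0.947 for *Epas1*, 0.939 for *Hif1a*, -0.113 for *Arnt*, and -0.983 for *Arnt2*, and it was 0.946 for *Srsf3*. These values also follow the split by line. After removal of the group means, r was -0.260 for *Ahr*, -0.480 for *Epas1*, -0.159 for *Hif1a*, -0.436 for *Arnt*, -0.189 for *Arnt2*, and -0.006 for *Srsf3*.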

How the data were processed

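RNA-seq was performed on polyA RNA from 12 samples, which were assigned to groups by their labels. Per the study's methods, the authors used BBDuk for trimming, Salmon (v1.4.0) with GRCm39 and GENCODE M26 for transcript quantification, and tximport for the sums per gene. The deposited values are expected counts, which estimate how many read pairs came from a gene and were not scaled for depth. The tximport version and scaling are not given in the sources used here. They were rounded, since 16.3% of them were not whole. The values hold no reads per exon or isoform.

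Genes were filtered with filterByExpr (minimum count 10) and scaled with TMM factors, and the quasi-likelihood test of edgeR 4.0.16 was run in 1 model that fits the 4 group means. This left 15037 genes, and a gene passed where its p-value after Benjamini-Hochberg adjustment was at most 0.05. The biological coefficient of variation was 0.0701. With 3 replicates against 3, an exact permutation test cannot go below p = 0.1. The bound given for *Cyp1a1* takes a fixed floor of 3 counts and does not cover the spread between cultures. Standard errors and p-values rest on the spread between cultures of 1 line per shRNA. R 4.3.3, limma 3.58.1, DESeq2 1.42.0, matplotlib 3.10.9, numpy 2.4.6, pandas 2.3.3, and Python 3.11 were also used, and the fit was tested on simulated data.

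Positions, lengths, and start sites were taken from the later GENCODE release M39 (GRCm39), in which all 39 named genes were found. The members, the lists, and the tests were chosen with earlier results of these data known. The genes named are the 6 members, *Srsf3*, list genes with an adjusted p of 0.05 or less, a fold of 2 or more, and a mean count of at least 50 in a knockdown comparison, list genes that passed upon ligand, the 2 most abundant genes of each list, the 3 nearest tested neighbours of *Sim2* on each side, and the 5 genes most like *Sim2*, of which 1 list gene is not reported here. The alternatives were DESeq2, other size factors, no filter, the replicate block, leaving out each sample or the 3 libraries of lowest mapping rate, a 2-fold minimum, and, added after the data were seen, another transcript length.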

Additional observations from a re-analysis of the deposited data

How the results depend on the processing

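The log2 fold changes of *Sim2* in the knockdown comparisons moved by less than 1 SD in all 17 alternative fits, and its call upon ligand in scramble cells (-0.16) was lost at -0.15 without a filter, at -0.16 without the 3 libraries of lowest mapping rate, and in 5 of 12 fits without 1 sample each, in which the value lay between -0.17 and -0.14. Over all named genes, 136 of 3315 values had the other sign under an alternative, and 0 of these were past the threshold in either fit. Counted per gene, comparison, and fit, 37 calls of the other named genes were gained and 21 were lost, beside the 7 losses of *Sim2*. The cause of these changes was not tested, beyond fewer samples or other genes tested.

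The same replicate numbers occur in all groups, but nothing says that they pair the samples, and the correlation of same-numbered deviations ranged from -0.380 to 0.439, with some pairs under 0.1. For differently numbered samples, the correlation had a wider range, from -0.607 to 0.558. With the replicate block, *Sim2* upon ligand in scramble cells was at -0.16 (adjusted p = 0.0450 from edgeR's test), the Ahr targets that fell with ligand numbered 0 in place of 1, the chaperones and regulators that rose upon ligand in scramble cells numbered 1 in place of 0, and 1 gene in place of 2 passed the interaction, while *Ripply3* with ligand was past the threshold (adjusted p = 0.0403). The block changed no other call of a named gene and moved no other count by over 1.5 times.

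With a 2-fold minimum, 864 of 6899 genes remained in the knockdown comparison without and 815 of 6169 with ligand, and 30 of 608 and 6 of 85 upon ligand in scramble and shSrsf3 cells. Without ligand, the lists then held 1 bHLH-PAS gene higher and 1 lower, and 0 chaperones and regulators higher and 1 lower. They also held 1 HIF target higher and 3 lower, 4 Ahr targets higher and 1 lower, and 0 Sim2-repressed genes higher and 1 lower. With ligand, the counts were 1 and 1 for bHLH-PAS genes, 0 and 1 for chaperones and regulators, and 1 and 3 for HIF targets. For Ahr targets they were 4 and 1, and for Sim2-repressed genes 0 and 1. Upon stimulation, 0 HIF targets remained in either direction.

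Without a filter, 1289 and 374 genes passed upon ligand in scramble and shSrsf3 cells and 218 passed the interaction. Upon ligand, 1 chaperone or regulator and 2 Ahr targets rose in scramble cells, 7 HIF targets and 2 Ahr targets rose in shSrsf3 cells, and 0 Ahr targets fell in either knockdown comparison. With DESeq2, 213 genes passed upon ligand in shSrsf3 cells and 26 the interaction, 1 chaperone or regulator rose upon ligand in scramble cells, 6 HIF targets rose in shSrsf3 cells, and 0 Ahr targets fell in either knockdown comparison. Without the 3 libraries of lowest mapping rate, 231 genes passed upon ligand in shSrsf3 cells and 16 the interaction, 2 bHLH-PAS genes fell and 6 HIF targets rose without ligand, 0 Ahr targets fell in either knockdown comparison, 1 chaperone or regulator rose upon ligand in scramble cells, and 6 HIF targets and 1 Ahr target rose upon ligand in shSrsf3 cells.

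When single samples were left out, the knockdown comparison without ligand had 1 to 2 bHLH-PAS genes lower, 6 to 10 HIF targets higher, and 0 to 1 Ahr targets lower. With ligand, it had 1 to 2 bHLH-PAS genes lower, 3 to 5 chaperones and regulators lower, 4 to 8 HIF targets higher, and 0 to 1 Ahr targets lower. Upon ligand in scramble cells, 243 (without scramble +PDGF-AA replicate 3) to 1472 genes (without scramble -PDGF-AA replicate 3) passed, among them 0 to 1 bHLH-PAS genes higher, 0 to 1 chaperones and regulators higher and 0 to 2 lower, 4 to 8 HIF targets higher and 0 to 1 lower, and 0 to 1 Ahr targets higher. Upon ligand in shSrsf3 cells, 23 to 168 genes passed, among them 3 to 5 HIF targets and 0 to 1 Ahr targets higher, and 1 to 6 genes passed the interaction.

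With the canonical transcript length, *Arnt2* made up 46.0% and 55.6% of the partner RNA in scramble and shSrsf3 samples without and 46.4% and 56.2% with ligand. Depth limits *Epas1* and the list genes of low count most.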
